A study of Mus musculus with 12 samples.

Results

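The ATP-binding cassette (ABC) transporter genes of the mouse were followed in TM3 Leydig cells treated with methoxyacetic acid (MAA), the active metabolite of the solvent ethylene glycol monomethyl ether. A gene was a member when its RefSeq symbol began with Abca, Abcb, Abcc, Abcd, Abce, Abcf or Abcg and a digit, and its probes were found through the accession that the scanner output gives for each spot. This gave 67 probes for 43 genes, of 41174 probes on the array, 22072 of which could be named in this way. RefSeq holds 50 genes of the family, and 7 of them had no probe by accession.

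TM3 is a cell line from the testis of an immature mouse, and the cells received MAA at 1 mM or at 5 mM, each for a period of 3, 8 or 24 h. RNA of each of the 6 conditions was set against RNA of cells kept for the same time in medium alone. Each RNA was a pool of 3 cultures, and each condition was hybridised on 2 arrays with the dyes exchanged. The 5 mM and 1 mM arrays of a time may share control cultures, which neither the study's methods nor the sample titles state. By the study's methods the arrays of a condition carried separate pools of treated cultures, so the spread between arrays holds that between pools as well as dye and array effects.

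ABC proteins use the binding and hydrolysis of ATP to move lipids, sterols, peptides, drugs and other molecules across membranes. Subfamily A moves mainly lipids, B peptides, drugs and mitochondrial substrates, C organic anions and conjugates, D fatty acids into peroxisomes, and G sterols and drugs, whereas E and F lack membrane-spanning parts and act in translation. In the testis, ABC pumps keep foreign compounds away from germ cells, and transporters of cholesterol act on the substrate that Leydig cells use to make steroids.

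The control channel of all 12 arrays showed 3 of 9 Leydig cell markers well above background (Star, Cyp17a1 and Insl3), while Cyp11a1, Hsd3b1, Hsd3b6 and Lhcgr were above it on no array. Of 6 Sertoli markers Rhox5, Sox9 and Wt1, and of 4 germ cell markers Ddx4 and Prm1, were above background on all 12. The Sertoli markers Amh, Fshr and Gata1 and the germ cell markers Dazl and Sycp3 were above it on some. Macrophage Adgre1 and Ptprc, the 2 of 4 macrophage markers with a probe by accession, were not above it in any control channel. The same held for endothelial Pecam1 and Cdh5, while endothelial Tek was above it in 8 control channels. Across arrays the median processed signal was 52.7 to 124 in the MAA channel and 53.0 to 126 in the control channel. The number of arrays, 2 per condition, limits the precision of every value.

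Of the 67 member probes, 40 (59.7%, against 60.1% of all probes) stood well above background, in the MAA or the control channel, on all 12 arrays, 16 did so on some arrays and 11 on none. No member spot was marked as an outlier or saturated. A call needed an unadjusted limma p under 0.005 for the log2 MAA/control ratio, together with more than a 2-fold change at 5 mM, or more than a 1.5-fold change at 1 mM. Adjusted p-values were taken by the Benjamini-Hochberg method across the whole array, and each value is given with its standard error (SE). In bulk cultures, less RNA per cell and fewer cells with that RNA cannot be told apart.

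At 5 mM, 4 member probes (5.97%) were called at 3 h against 3.76% of all probes, 10 (14.9%) at 8 h against 5.55%, and 15 (22.4%) at 24 h against 5.62%. They divided into 1 up and 3 down at 3 h (2.02% and 1.74% of all probes), 6 up and 4 down at 8 h (3.06% and 2.49%), and 10 up and 5 down at 24 h (3.85% and 1.77%). At 1 mM, 3 (4.48%) were called at 3 h against 1.95% of all probes, 3 (4.48%) at 8 h against 2.37%, and 8 (11.9%) at 24 h against 4.68%. There, 1 was up and 2 down at 3 h (1.32% and 0.627% of all probes), 1 up and 2 down at 8 h (1.72% and 0.656%), and 8 up and 0 down at 24 h (3.26% and 1.41%). The median log2 ratio of the member probes at 5 mM was -0.08 at 3 h, 0.17 at 8 h and 0.17 at 24 h, beside -0.10, -0.04 and 0.03 over all probes. In all, 21 member probes of 15 genes were called in at least 1 condition (12.8% of all probes were). These gave 43 called values, of which all 43 had the same direction on both arrays, 39 passed the fold on both, and 40 had an adjusted p under 0.05. Probes of a gene share their target, so the probe counts are not counts of separate genes.

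**Figure D1:**
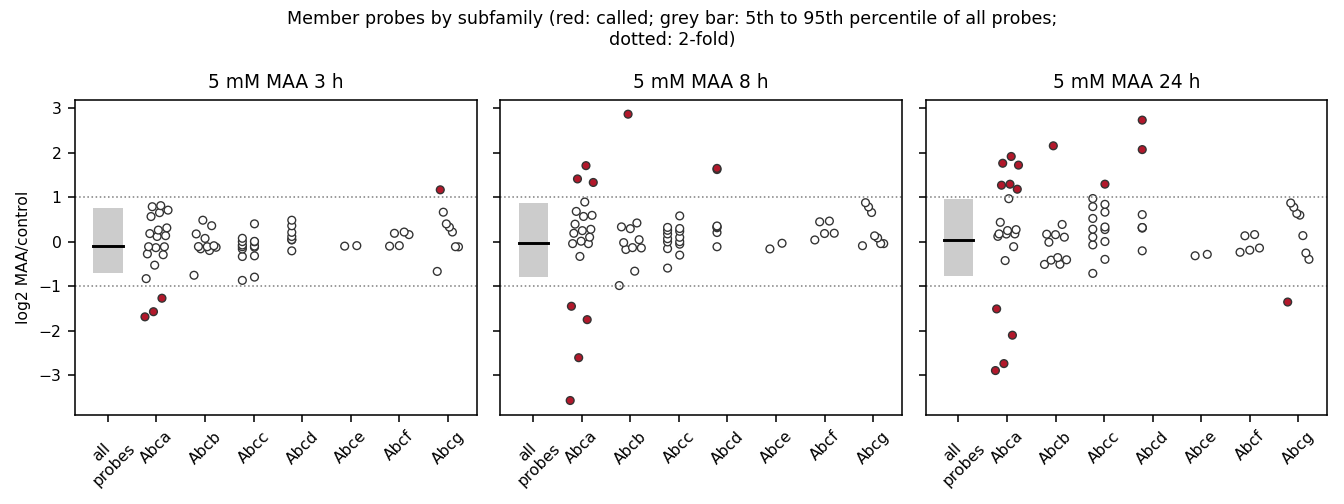
Log2 MAA/control (y axis) of every member probe at 5 mM, by subfamily, with a panel for each time. Red points were called, the grey bar spans the 5th to 95th percentile of all probes with its median, and the Abca subfamily holds 10 of the 15 called probes at 24 h.

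The response lay unevenly over the subfamilies. Abca had a called probe for 7 of 13 genes, Abcb for 1 of 8, Abcc for 3 of 8, Abcd for 1 of 4, Abcg for 3 of 6, and neither Abce1 nor the 3 Abcf genes had any. Over all 15972 named genes, 15.3% had a called probe in some condition, and the members had 1.56 probes per gene against 1.38. By the brightest probe of each gene alone, 32.6% of the members and 13.9% of all named genes were called. At 5 mM and 24 h, 10 of 20 Abca probes were called, 6 up and 4 down. These differences between subfamilies were not tested. When the background was corrected anew from the raw signals (normexp with an offset of 50, then loess), 11 of the 43 called values still passed, 7 of them at 5 mM and 24 h, where 2.14% of all probes passed. The other 32 fell under the fold threshold, 31 of them with the same sign. All 10 values that passed under every alternative belonged to Abca5, Abca7, Abca8a, Abca8b and Abca9.

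**Figure D2:**
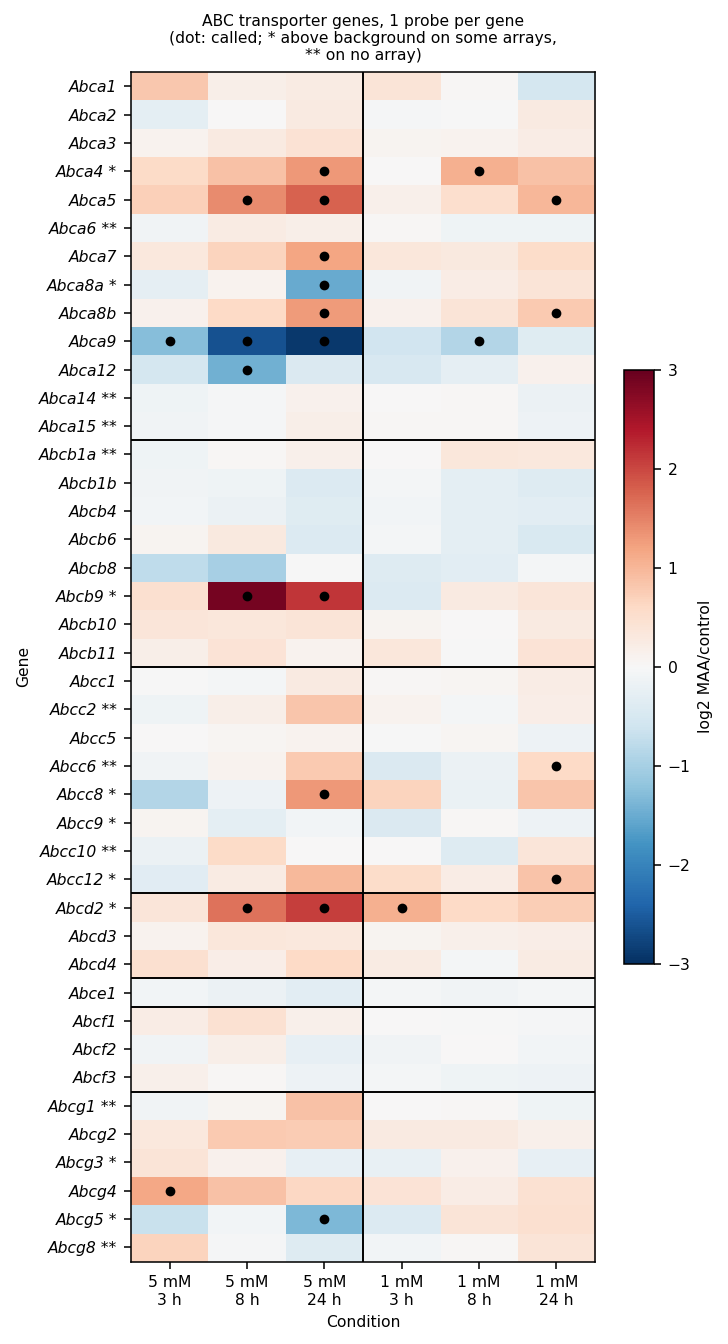
Log2 MAA/control (colour) of 42 ABC transporter genes (rows, grouped by subfamily) in the 6 conditions (columns), by the probe of each gene with the highest mean signal. Dots mark called values. Red rows for Abca5 and Abcd2 and a blue row for Abca9 stand out, and Abce1 and the Abcf rows hold no dots.

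Abca9, which encodes a transporter of the ABCA6-like group whose substrate is little known, was the most strongly down regulated member. Its brightest probe read -0.76 and -1.79 (log2 MAA/control) on the arrays of 5 mM and 3 h, -2.51 and -2.70 at 8 h, and -2.80 and -3.0 at 24 h. All 6 values lay below 0, and the pair at 3 h was further apart than those at 8 and 24 h. The fitted ratios were -1.27, -2.61 and -2.90 (SE 0.22), or 2.42-, 6.10- and 7.45-fold lower, with adjusted p = 0.00491, 0.000126 and 9.63e-05. The call at 3 h was lost without replicate 2.

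At 1 mM, the same Abca9 probe read -0.32 and -0.84 at 3 h, -0.81 and -0.96 at 8 h, and -0.35 and -0.39 at 24 h. Only the value at 8 h was called (-0.89, adjusted p = 0.0677), and 13 of 21 alternatives lost that call. The difference between 5 mM and 1 mM was -1.72 (SE 0.32, adjusted p = 0.0163) at 8 h and -2.53 (SE 0.32, adjusted p = 0.00479) at 24 h.

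A further Abca9 probe was called down at every condition but 1 mM and 24 h. Its ratios were -1.69, -3.57 and -2.74 (SE 0.15) at 5 mM and -0.87, -0.87 and -0.37 at 1 mM. At 5 mM and 8 h neither array had its MAA channel well above background. The processed signals gave a decrease there of at least 10.4-fold, whereas the ratio was as small as -1.48 under the alternatives. The remaining Abca9 probe was dimmer and was called at the 3 times of 5 mM and at 1 mM and 3 h. Neither of its channels was above background at 3 h, the call at 1 mM was lost under 12 of 20 alternatives, and at 5 mM and 8 h its decrease was at least 1.07-fold, with the control channel above background on 1 of 2 arrays. All Abca9 probes thus read below 0 in all 6 conditions.

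The single channels, scaled between arrays by Aquantile, show how the Abca9 level of control cells moved with time in culture. The control signal of the brightest probe was 7.66 to 8.20 (log2, lowest and highest of 4 arrays) at 3 h, 8.57 to 8.67 at 8 h and 10.6 to 10.9 at 24 h, without overlap between times. The 4 control channels of a time may come from the same cultures, so they are not counted as 4 separate replicates. With 5 mM MAA the mean was 6.66 at 3 h, 5.99 at 8 h and 7.78 at 24 h. The probe with the largest ratio read 7.10 to 7.39 in control cells at 3 h, 6.92 to 7.13 at 8 h and 7.65 to 7.77 at 24 h. It thus showed no rise from 3 h to 8 h, unlike the brightest probe, and a smaller difference between 3 h and 24 h. The dimmest probe read 2.80 to 4.0 at 3 h, above background on no array, and 5.55 to 6.45 at 24 h.

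**Figure D3:**
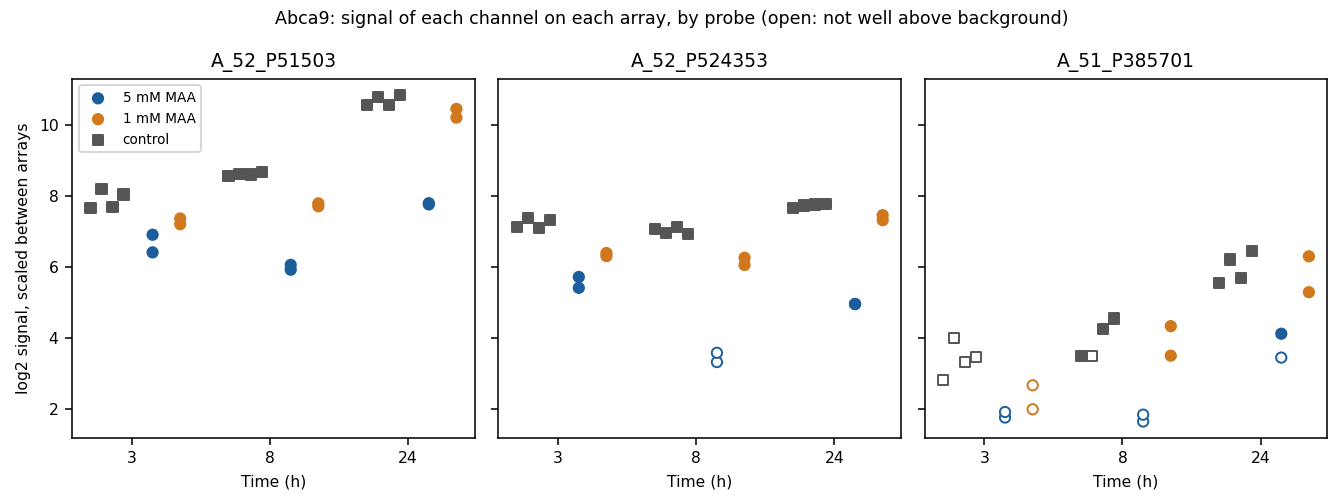
Log2 signal (y axis, scaled between arrays) of the 3 Abca9 probes in control cells (grey squares) and in cells treated with 5 mM (blue) or 1 mM MAA (orange) on each array, by time (x axis, h). Open symbols were not well above background. For the brightest probe the control squares lie between 10.6 and 10.9 at 24 h, and the 5 mM circles lie at a mean of 7.78.

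Abca9 lies on chromosome 11 among close relatives, in the RefSeq order Abca8b, Abca8a, Abca9, Abca6 and Abca5. Members of this group moved in opposite directions. Abca5, a lipid transporter of lysosomes and late endosomes, was up regulated by its 3 probes at 5 mM and 8 h, at 5 mM and 24 h and at 1 mM and 24 h. Its brightest probe read 0.85 and 0.57 at 5 mM and 3 h, 1.35 and 1.47 at 8 h, and 1.78 and 1.74 at 24 h. The ratios were 0.71, 1.41 and 1.76 (SE 0.13), the last of these 3.39-fold (adjusted p = 7.50e-05). The other probes gave 1.71 and 1.33 at 8 h and 1.91 and 1.72 at 24 h. At 1 mM and 24 h the brightest probe read 1.01 and 1.00, for a ratio of 1.00 (adjusted p = 0.00378).

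Abca8b, a transporter of the same group, read 1.19 and 1.35 at 5 mM and 24 h, with a ratio of 1.27 (SE 0.14, adjusted p = 0.000453), and 0.78 and 0.80 at 1 mM and 24 h, with a ratio of 0.79 (adjusted p = 0.0133). The latter call was lost without either array of that condition. Its dimmer probe was called only at 1 mM and 24 h (0.93, lost under 10 of 20 alternatives) and read 0.96 at 5 mM and 24 h. Abca8a, its near copy, was down regulated at 5 mM and 24 h. It read -1.51 and -1.52 there (ratio -1.51, SE 0.08, adjusted p = 2.07e-05), but 0.38 and 0.39 at 1 mM and 24 h and 0.17 and 0.03 at 5 mM and 8 h. The difference between 5 mM and 1 mM at 24 h was -1.90 (SE 0.11, adjusted p = 0.000581). The scaled Abca8a control signal was 3.78 to 4.26 (log2) at 3 h, above background on 2 of 4 arrays. It was 4.20 to 4.79 at 8 h and 7.89 to 8.05 at 24 h, beside a mean of 6.45 with 5 mM MAA at 24 h. The probe of Abca6 was above background on no array. These genes are similar in sequence, and whether a probe also bound the RNA of a neighbour was not tested.

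**Figure D4:**
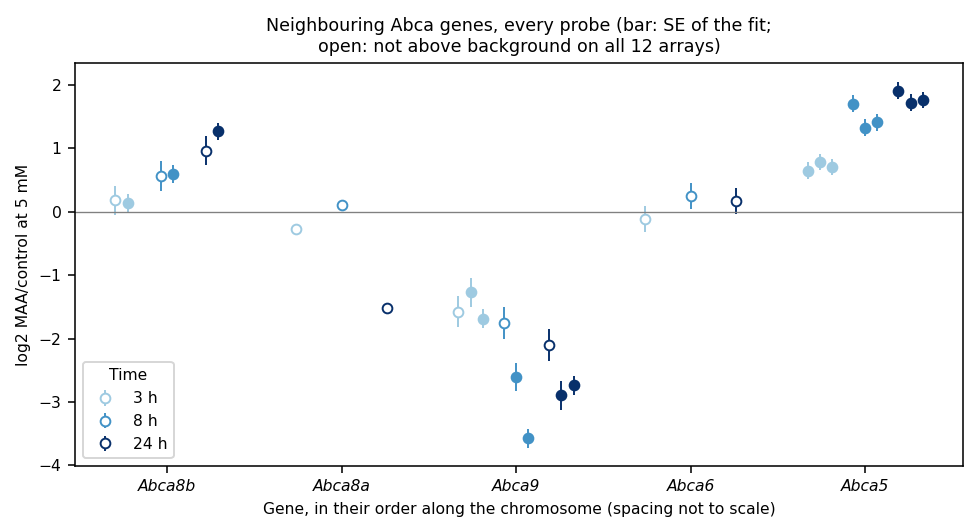
Log2 MAA/control at 5 mM (y axis) of every probe of the neighbouring genes Abca8b, Abca8a, Abca9, Abca6 and Abca5 (x axis, in chromosomal order, not to scale), shaded by time, with the SE of the fit. At 24 h the probes of Abca5 lie between 1.72 and 1.91 and those of Abca9 between -2.90 and -2.10.

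The 250 bases before the start of Abca9, which fell, and of Abca5, which rose, are shown for comparison, as RefSeq gives them for GRCm38.p6. Both genes lie on the minus strand, and the sequences run 5′ to 3′ along the gene. Capitals mark the GC box GGGCGG, or its complement CCGCCC, which factors of the SP1 family can bind.
Abca9 (chr11:110168154-110168403): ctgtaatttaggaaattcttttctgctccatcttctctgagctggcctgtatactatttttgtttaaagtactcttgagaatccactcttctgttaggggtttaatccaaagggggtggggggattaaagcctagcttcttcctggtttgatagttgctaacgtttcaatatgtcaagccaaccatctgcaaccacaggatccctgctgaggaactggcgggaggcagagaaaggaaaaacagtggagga
Abca5 (chr11:110337717-110337966): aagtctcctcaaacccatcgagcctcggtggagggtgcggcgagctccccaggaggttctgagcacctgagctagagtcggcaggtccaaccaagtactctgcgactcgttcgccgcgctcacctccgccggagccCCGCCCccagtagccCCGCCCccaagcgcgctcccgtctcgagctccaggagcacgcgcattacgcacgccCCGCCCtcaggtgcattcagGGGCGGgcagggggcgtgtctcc
The Abca5 window held 4 GC boxes, 25 CG pairs and 69.2% G and C, and the Abca9 window 0 GC boxes, 2 CG pairs and 44.4% G and C. That of Abca8b held 1 GC box and that of Abca8a 0. The TATA box TATAAA was in none of the 4 windows on either strand. Over windows of 300 bases, which end 50 bases after the start, 35.7% of all 32851 promoters held a GC box on either strand, as did 20 of 39 promoters found for 33 member genes and 4 of 12 found for 11 called genes. These counts describe letters in a window and no binding.

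The other called Abca genes were Abca7, Abca12 and Abca4. Abca7, which exports phospholipids and takes part in phagocytosis, read 0.42 and 0.19 at 5 mM and 3 h, 0.72 and 0.64 at 8 h, and 1.24 and 1.11 at 24 h. Its ratio of 1.18 at 24 h (SE 0.08, adjusted p = 4.66e-05) exceeded that at 3 h by 0.87 (SE 0.11, adjusted p = 0.00236). A second Abca7 probe, above background on 2 arrays, was not called. Abca12, a lipid transporter known from the skin barrier, was down regulated at 5 mM and 8 h. It read -1.20 and -1.70 there (adjusted p = 0.000988), with the MAA channel not above background. The processed signals gave a decrease of at least 1.56-fold, whereas the ratio was -0.24 with normexp and loess. Abca4, the retinoid transporter of photoreceptors, was called up at 5 mM and 24 h, by at least 1.28-fold with the MAA channel above background on 1 of 2 arrays, and at 1 mM and 8 h, where neither channel was above background. The former call was lost with slide as a block and without either array of the condition, and the latter under 9 of 20 alternatives.

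Of the remaining Abca genes, Abca1, the main exporter of cholesterol to apolipoprotein A-I, read 1.07 and 0.54 at 5 mM and 3 h (0.81, not called) and -0.48 and -0.59 at 1 mM and 24 h (-0.53, not called). At 24 h its ratio at 5 mM was 0.78 above that at 1 mM (SE 0.19, adjusted p = 0.0437). Abca2 and Abca3 lay between -0.29 and 0.43 by their brightest probes, and Abca6, Abca14 and Abca15 were above background on no array.

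In subfamily B, Abcb9, the peptide transporter of the lysosome that is related to TAP, was up regulated at 5 mM. It read 0.18 and 0.78 at 5 mM and 3 h, 2.57 and 3.16 at 8 h, and 1.82 and 2.48 at 24 h. The groups at 3 h and at the later times did not overlap, but at 3 h neither channel of Abcb9 was above background, so the size of that difference is not known. Its control channel was not above background at 8 h. The processed signals gave an increase there of at least 4.76-fold (adjusted p = 0.000107), whereas normexp and loess gave a ratio of 0.87. The ratio at 24 h was 2.15 (SE 0.24, adjusted p = 0.00044), with the control channel above background on 1 of 2 arrays. At 1 mM it lay between -0.41 and 0.36 and was not called. The difference between concentrations was 1.80 (SE 0.34, adjusted p = 0.019) at 24 h. The contrast also passed at 8 h (adjusted p = 0.00506), where the control channel was above background on no array of either concentration, so its size is not known.

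Abcb8, a mitochondrial transporter linked to iron export, read -0.78 and -0.73 at 5 mM and 3 h, -1.01 and -0.96 at 8 h, and 0.03 and -0.06 at 24 h. Its ratio of -0.99 at 8 h stood just short of the 2-fold limit and was not called. The rise from 3 h to 24 h was 0.74 (SE 0.09, adjusted p = 0.00194). Abcb1b, a drug efflux pump of rodents, gave -0.41, -0.51 and -0.51 by its 3 probes at 5 mM and 24 h, and none was called. Its relative Abcb1a was above background on no array. Abcb4, Abcb6, Abcb10 and Abcb11 lay between -0.46 and 0.42 by their brightest probes.

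In subfamily D, Abcd2, which carries very long chain fatty acids into peroxisomes, was up regulated. Its brighter probe read 0.66 and 0.05 at 5 mM and 3 h, 1.47 and 1.76 at 8 h, and 1.74 and 2.40 at 24 h, without overlap between 3 h and the later times. Neither channel was above background on the 5 mM arrays of 3 h, so the size of that difference is not known. The ratios of 1.62 at 8 h and 2.07 at 24 h (SE 0.20) had adjusted p = 0.000687 and 0.000245. At 1 mM and 3 h it was called up by at least 1.03-fold, from 1 array with the MAA channel above background, and that call was lost without replicate 1. By the processed signals the dimmer probe rose by at least 2.34-fold at 5 mM and 24 h, whereas normexp and loess gave a ratio of 0.49. The call of that probe at 8 h gave no fold above the background limit. Its relative Abcd3 lay between 0.09 and 0.35 by the brightest of its 3 probes and Abcd4 between -0.05 and 0.61, and neither was called.

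The called genes of subfamily C were above background on 6 arrays at most. Abcc8, the sulphonylurea receptor of potassium channels, read 1.08 and 1.5 at 5 mM and 24 h and was called up by at least 1.84-fold (adjusted p = 0.0198). Its other probe read 0.22 and -1.02 there, and 13 of 20 alternatives lost the call. Abcc12 was called at 1 mM and 24 h (0.83 and 0.88 on its arrays, adjusted p = 0.0374) and read 0.97 at 5 mM and 24 h, and the call at 1 mM was lost under 11 of 20 alternatives. Abcc6, whose loss causes ectopic calcification, was called at 1 mM and 24 h, where neither channel was above background, and 13 of 20 alternatives lost that call. The brightly measured Abcc1, an exporter of glutathione conjugates, stayed between -0.06 and 0.28 by its brightest probe. The 3 probes of Abcc5, an exporter of cyclic nucleotides, disagreed at 5 mM and 24 h with 0.52, 0.10 and -0.71, and none was called. Abcc2 and Abcc10 were above background on no array, and Abcc9 on 5.

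In subfamily G, Abcg4, a sterol transporter related to Abcg1, was called up at 5 mM and 3 h only. It read 1.45 and 0.88 at 5 mM and 3 h (1.16, SE 0.14, adjusted p = 0.000847), 0.85 and 0.90 at 8 h, and 0.63 and 0.64 at 24 h. Neither later time passed the limma contrast with 3 h (adjusted p = 0.535 at 8 h and 0.124 at 24 h). The control channel was above background on 1 of 2 arrays at 3 h, and that call was lost without replicate 1. Abcg5, a partner in sterol export, read -1.11 and -1.61 at 5 mM and 24 h (-1.36, SE 0.28, adjusted p = 0.00863) and 0.37 and 0.57 at 1 mM and 24 h. The call was lost without either array of the condition. Its partner Abcg8 had both probes above background on no array, and its dimmer probe was called up at 1 mM and 24 h, a call kept under 9 of 20 alternatives.

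Abcg2, the breast cancer resistance protein, a drug and urate exporter, was not called but changed evenly. It read 0.37 and 0.28 at 5 mM and 3 h, 0.76 and 0.80 at 8 h, and 0.82 and 0.72 at 24 h. The ratio at 5 mM exceeded that at 1 mM by 0.50 (SE 0.08, adjusted p = 0.0101) at 8 h and by 0.61 (SE 0.08, adjusted p = 0.00561) at 24 h. The second Abcg2 probe gave differences of 0.42 and 0.44. Abcg1 was above background on no array, and Abcg3 on 4.

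The members without transport function were Abce1 and the Abcf genes. The 2 probes of Abce1, a ribosome recycling factor, lay between -0.32 and -0.02 in all conditions. Abcf1, Abcf2 and Abcf3, which act in translation, lay between -0.24 and 0.46, the highest being Abcf1 at 5 mM and 8 h. No Abce or Abcf probe was called in limma, where 3.76% to 5.62% of all probes were called at a time of 5 mM. With 7 probes, 0 calls cannot be told from that share. Of the 7, 3 had an unadjusted limma p under 0.05 at 5 mM and 8 h and 3 at 24 h. Of all probes, 38.2% and 38.6% did. The brightest probe of Abcf1 differed between concentrations at 8 h (limma contrast 0.48, adjusted p = 0.0289).

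**Figure D5:**
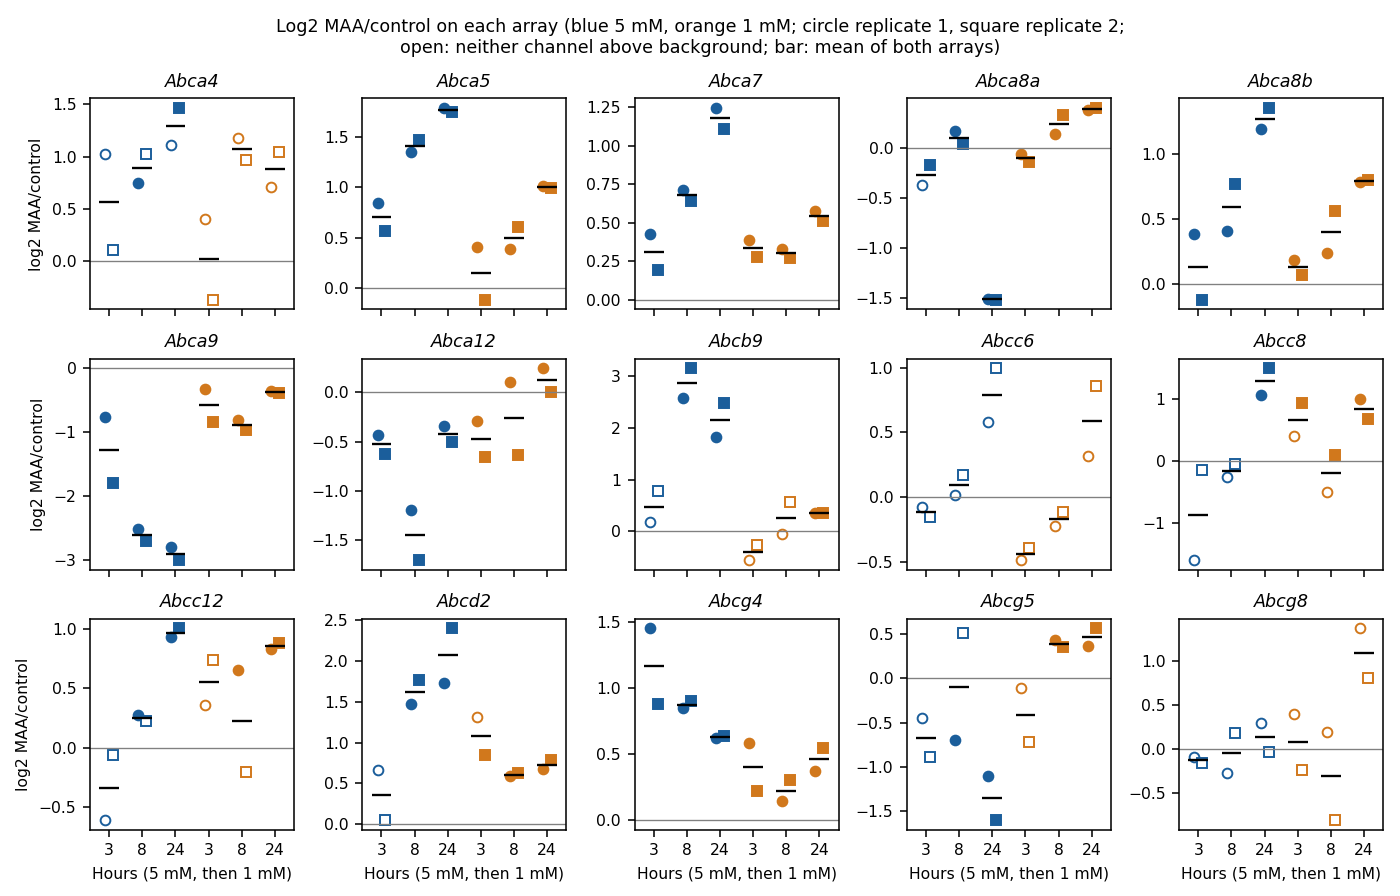
Log2 MAA/control (y axis) on each array for the 15 ABC genes with a called probe, at 3, 8 and 24 h (x axis) of 5 mM (blue) and 1 mM (orange). Black bars are the mean of both arrays, and open symbols had neither channel above background. The arrays of Abca8a at 5 mM and 24 h read -1.51 and -1.52, whereas those of Abcg8 have open symbols throughout.

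Whether the response depended on the concentration was tested as a contrast between the log2 ratios. At 3 h, 0 member probes passed an adjusted p under 0.05 in limma (3.40% of all probes did, and 13 member probes had an unadjusted p under 0.05). At 8 h, 12 (17.9%) passed against 10.1% of all probes, and at 24 h 16 (23.9%) against 8.41%. Probes of Abca5, Abca9, Abcb9 and Abcg2 passed at both 8 and 24 h. With the 4 arrays of a time fitted alone, 0 member probes passed at 8 h and 0 at 24 h. Leaving out any 1 of the 4 arrays of the time, at either concentration, left 3 to 5 at 8 h and 3 to 6 at 24 h. Over all alternatives the counts lay between 0 and 19 at 8 h and between 0 and 20 at 24 h. Arrays of both concentrations lay on the same slide for both pairs at 8 h and for 1 pair at 24 h, and within these slides all 12 and all 16 differences had the sign of the fit. At 8 h the fitted value is the mean of both slides, and at 24 h it includes the 1 pair. The sign is therefore no separate test at either time. The brightest probe of Abca9 differed by -1.70 and -1.74 on the slides of 8 h and by -2.45 on that of 24 h.

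Over time at 5 mM, 5 member probes (7.46%) differed between 8 h and 3 h, against 5.10% of all probes. Between 24 h and 3 h, 20 (29.9%) differed, 16 higher and 4 lower, against 15.8%. The 4 lower were 2 probes of Abca9 and those of Abca8a and Abcb6, and the 16 higher included Abca5, Abca7, Abca8b, Abcb9, Abcc8, Abcd2 and Abcg2. The count between 24 h and 3 h fell to 8 when the 5 mM arrays were fitted alone, and to between 8 and 13 without any 1 of the arrays of those times. The count between 8 h and 3 h fell to between 1 and 3 without any 1 of the 5 mM arrays or of the 1 mM arrays of 24 h. Over all alternatives the counts lay between 8 and 32 for 24 h and between 0 and 15 for 8 h against 3 h. Both pairs of 3 and 24 h at 5 mM shared a slide, and all 20 differences had the same sign on both slides, whose mean is again the fitted value.

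Genes that work beside the transporters were listed too. Of 12 organic anion and cation carriers, 1 was called up at 5 mM and 3 h, 2 up and 1 down at 8 h, and 2 up and 1 down at 24 h. At 1 mM, 1 was called up at each time. Of all probes, 3.76%, 5.55% and 5.62% were called at 3, 8 and 24 h of 5 mM, and 1.95%, 2.37% and 4.68% at 1 mM. Slco4a1, a carrier of thyroid hormone and other anions, rose at all 3 times (2.07, 2.19 and 2.44, adjusted p = 0.000715, 0.000378 and 0.000258). Slc22a2, the organic cation transporter OCT2, fell at 8 h (-2.55) and 24 h (-1.93). Across all 12 arrays its control channel was above background on 8 and its MAA channel on 6. Slc22a4 at 8 h (1.22) was called from a control channel above background on no array. Slco2b1 at 24 h (1.80) was called with neither channel above background on any array.

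Among 6 xenobiotic sensors, which control many ABC genes, the aryl hydrocarbon receptor Ahr rose at 3 h (1.40) and 24 h (1.14) of 5 mM and at 24 h of 1 mM (1.58). The pregnane X receptor Nr1i2 was called at 5 mM and 24 h (2.46), with the control channel not above background. Of 8 genes of peptide loading on MHC class I, the proteasome subunit Psmb9 rose at 8 h (1.24) and 24 h (1.31) of 5 mM. The class I heavy chain H2-D1 rose at 24 h of 5 mM (1.18). At 1 mM, Psmb9 was called up at 8 h (0.59), and Psmb8 (0.82), Psmb9 (0.86) and H2-D1 (0.71) at 24 h. The shares of all probes called are given with the carriers above. Tap1, Tap2 and Cftr, family members under other names, were not called, with Tap1 at 0.60, 0.46 and 0.23 at 5 mM. Of 9 peroxisomal genes, the fatty acid oxidation enzyme Ehhadh was called up at 8 h of 5 mM (1.69) and of 1 mM (1.25), and was above background on 1 array.

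No gene was called in any condition among 15 genes of cholesterol and phospholipid efflux, 7 of mitochondrial haem and iron-sulphur synthesis, 7 of translation and 2 pore subunits of ATP-sensitive potassium channels. Of all probes, 3.76% to 5.62% were called at a time of 5 mM and 1.95% to 4.68% at a time of 1 mM. At 5 mM and 8 h, 9, 5, 4 and 0 of these had an unadjusted limma p under 0.05, as did 38.2% of all probes.

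Markers of other cell types moved at the times when most members were called. At 24 h Adgre1, a macrophage marker, was called up at 5 mM (2.85) and 1 mM (2.87), with its control channel above background on no array. Ptprc, the other macrophage marker, was above background in neither channel on any array and read 0.18 at 5 mM and 24 h. The summed scaled signal of the 2, of which only Adgre1 was detected, was 33.7 to 36.8 with 5 mM MAA against 6.36 to 7.92 in its controls. Of 3 endothelial markers, Cdh5 was called up at 24 h (1.26 at 5 mM and 2.04 at 1 mM, control not above background). The summed signal of the 3 was 23.1 to 38.6 with 5 mM MAA against 38.7 to 41.5. Of 6 Sertoli markers, Rhox5 rose at 5 mM and 24 h (1.28) and Sox9 at 3 h of 5 mM (1.37) and 1 mM (0.80), Gata1 rose at 1 mM and 24 h (0.94), and the sums at 5 mM and 24 h were 10710 to 11030 against 10860 to 12330. Of 9 Leydig markers, Insl3 fell (-1.11) and Cyp11a1 was called up (1.75, control not above background) at 5 mM and 24 h, with sums of 518.9 to 526.6 against 801.9 to 897.9. No germ cell marker of 4 was called, with sums of 417.3 to 469.7 against 659.9 to 794.1. At 5 mM and 8 h the sums with MAA and in its controls were 468 to 484 against 558.7 to 602.9 for the Leydig markers and 5306 to 5364 against 8637 to 9345 for the Sertoli markers. The endothelial sums there were 11.5 to 18.1 against 22.8 to 29.2, and those of the germ cell markers (595.1 to 631.5 against 553.8 to 739.3) and macrophage markers (4.365 to 5.299 against 4.679 to 5.196) overlapped. Their part in the ABC transporter values was not tested.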

How the data were processed

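Feature Extraction 9.5.3.1, run by the authors on the scans, subtracted background and normalized the dyes within each array, and its processed intensity values were the ones used here. The deposited table holds log10 ratios to 2 decimals, already turned to MAA over control. Control spots and outlier spots were left out, repeated spots were averaged, and log2 ratios of the processed signals were turned to MAA over control without centring. The 12 arrays were fitted together in limma 3.58.1 (R 4.3.3), with 1 coefficient per condition and 6 residual and 1.515 prior degrees of freedom, and Benjamini-Hochberg adjustment over all probes. A fold is given as at least a value where 1 channel was not well above background, with channels scaled by Aquantile. The dim channel was set no lower than the lowest signal well above background on its array. Such bounds hold for the processed signals and can fail under another background correction. The scripts were tested on simulated data. Symbols came from RefSeq accessions (GRCm38.p6), without versions. A gene with several probes is given by the probe with the highest mean signal. All called member genes are named, and others by range. Values of 1 uncalled member gene are not reported here. The members and the gene lists were chosen with earlier results of these data known. The alternatives were other background correction, the deposited ratios, centring, detected probes only, outlier spots kept, the replicate number or the slide as a block, other thresholds, smaller fits, 1 probe per gene and leaving out each array. Figures were drawn with Python 3.11.15 and matplotlib 3.10.9.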

Additional observations from a re-analysis of the deposited data

Results flagged for a closer look

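Values that differed between conditions by a test of the difference itself are given here as differences of log2 MAA/control for the brightest probe of each gene (limma contrast, adjusted p under 0.05), 34 in all, for 18 genes. At 8 h, the 5 mM ratio minus the 1 mM ratio differed for Abca12 (-1.19), Abca5 (0.91), Abca9 (-1.72), Abcb6 (0.57), Abcb8 (-0.67), Abcb9 (2.60), Abcf1 (0.48) and Abcg2 (0.50). At 24 h it differed for Abca1 (0.78), Abca5 (0.76), Abca7 (0.64), Abca8a (-1.90), Abca9 (-2.53), Abcb9 (1.80), Abcd2 (1.34), Abcg2 (0.61) and Abcg5 (-1.83). At 5 mM, the ratio at 8 h minus that at 3 h differed for Abcb9 (2.38), Abcd2 (1.26) and Abcg2 (0.45). The ratio at 24 h minus that at 3 h differed for Abca5 (1.05), Abca7 (0.87), Abca8a (-1.24), Abca8b (1.13), Abca9 (-1.63), Abcb6 (-0.49), Abcb8 (0.74), Abcb9 (1.67), Abcc1 (0.28), Abcc12 (1.30), Abcc6 (0.90), Abcc8 (2.16), Abcd2 (1.71) and Abcg2 (0.45). Of the 34, 9 rest on a condition with a channel above background on no array, so that their sizes are not known exactly. These are Abca12 and Abcb9 at 8 h between concentrations, Abcb9 and Abcd2 between 8 h and 3 h, and Abcb9, Abcc12, Abcc6, Abcc8 and Abcd2 between 24 h and 3 h. The probe of Abcc6 was above background on no array. At 24 h, the arrays of Abca8a and Abcg5 all read below 0 at 5 mM and above 0 at 1 mM, and those of Abca1 above 0 at 5 mM and below 0 at 1 mM.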

How the results depend on the processing

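With background corrected anew by normexp and loess, the member probes called numbered 0, 3 and 7 at 3, 8 and 24 h of 5 mM and 0, 1 and 0 at 1 mM, while 3 passed the contrast of concentrations at 3 h and 11 that of 8 h and 3 h. Abcg8 at 1 mM and 24 h turned from 1.09 to -0.00018 there. Among probes well above background on all 12 arrays, 6 and 7 were called at 8 and 24 h of 5 mM and 1 and 4 at 3 and 24 h of 1 mM, and 3 and 12 passed those contrasts, with fewer probes tested. With 1 probe per gene, 2 and 5 were called at 3 and 8 h of 5 mM and 1 and 4 at 3 and 24 h of 1 mM, and 9 passed the contrast of concentrations at 24 h and 3 that of 8 h and 3 h. Centring each array gave 7 and 9 for the contrasts of concentrations at 8 and 24 h and 2 for 8 h against 3 h, and the cause was not tested. The deposited ratios gave 1 for the contrast at 3 h and 11 for 8 h against 3 h. Smaller fits left 4 called at 1 mM and 24 h, and 0, 0, 0 and 8 for the contrasts at 8 h, at 24 h, of 8 h and 3 h and of 24 h and 3 h. The other thresholds left 1 called at 1 mM and 8 h and 1 past the contrast at 3 h. Slide as a block gave 1 called at 1 mM and 8 h, and 1, 19 and 9 for the contrasts of concentrations at 3 and 8 h and of 8 h and 3 h (differences within slides stand beside the contrasts above). The replicate number marks the dye orientation, and the deviations of same-numbered arrays correlated over 0.1 in 14 of 15 pairs of conditions (0.0394 to 0.773). The replicate block left 4, 10 and 15 called at 5 mM and 2, 2 and 6 at 1 mM, and gave 2, 19 and 20 for the contrasts of concentrations at 3, 8 and 24 h, 15 for 8 h and 32 for 24 h against 3 h. Without each array in turn, counts at 5 mM ranged from 3 to 5 at 3 h, 9 to 12 at 8 h and 13 to 15 at 24 h, and at 1 mM from 1 to 3, 0 to 3 and 2 to 8. Contrast counts ranged from 0 to 0 at 3 h, 3 to 12 at 8 h, 3 to 14 at 24 h, 1 to 5 for 8 h and 8 to 18 for 24 h against 3 h. Without either array of the condition itself, 1 probe was called at 1 mM and 3 h and 0 at 1 mM and 8 h, and at 1 mM and 24 h 3 were called without replicate 1 and 2 without replicate 2. Of 43 called values, 10 passed under every alternative that could be run.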
